A study of Glycine max with 18 samples.

Results

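The gene expression of germinating seeds of the low phytate soybean (Glycine max) line TW-1-M was compared between the last and the first of the 3 sampled germination stages. TW-1-M-3 stands for seeds whose emerging primary root had reached 1 mm, and TW-1-M-1 for seeds at the imbibition stage, with 3 libraries each. TW-1-M arose as a natural mutant within the line TW-1, itself obtained from the vegetable variety Taiwan 75 with gamma rays. Both lines carry the same 2-bp deletion in GmMIPS1, the gene of an enzyme that makes the inositol skeleton of phytate, so no library of the series is free of it, and TW-1-M is 1 line with no wild-type library beside it. The labels give B5 agar gel, 25°C and darkness as the growth conditions, which the study's methods describe for its germination test. The intermediate stage of TW-1-M, TW-1-M-2, is used to describe the course between the end points. The same span in TW-1, TW-1-3 against TW-1-1, is used as the reference line, again with 3 libraries each. The labels place stage 2 at 12 h after imbibition, which is not the time given in the study's methods, and the difference could not be settled. The methods count from soaking and place stage 1 itself later than 12 h, so by the methods TW-1-M-1 seeds were not near the dry state. Nothing in the labels says whether replicates came from separate batches of seeds, so the p-values measure the spread between these libraries, which may be technical.

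The values are FPKM, fragments scaled to exon length and to the mapped fragments of the library, as deposited for 45955 genes in 18 libraries. A gene was kept when 3 or more of the 18 libraries had it at 1 FPKM or above, and 27150 genes met this. They were compared on log2(FPKM + 1) with limma, 3 libraries against 3. A gene is called higher or lower in TW-1-M-3 where its Benjamini-Hochberg adjusted p-value was below 0.05 and its log2 fold change, TW-1-M-3 over TW-1-M-1, was beyond 1 in size. Since 1 FPKM is added to each value, the log2 fold change understates the change of genes near 0. Genes are named by the symbol of the reference, or by the study's gene number (such as gene35300) with the product that the study's annotation gives. Soybean holds many genes in near-identical copies, and how reads shared between copies were divided is not given in the sources used here, so single members of a family are less certain than the family. The libraries are of germinating seeds, and the study's methods do not say whether whole seeds or parts were extracted. A lower level can come from fewer cells of a type or from less RNA per cell, which cannot be told apart.

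A dry seed holds messenger RNA stored during maturation, much of it for proteins that protect cells against drying, for oil body coats and for storage proteins. After water uptake this stored RNA is degraded, metabolism restarts, and new transcripts are made for translation, for loosening of cell walls and for the growth that pushes the root through the seed coat. Abscisic acid keeps seeds from germinating and gibberellin promotes germination. The comparison asks which transcripts TW-1-M lost and which it gained over this span.

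The TW-1-M libraries were separated by stage. The first principal component over its 9 libraries held 73.6% of the variance, and placed the TW-1-M-1 libraries between -162 and -71.1, the TW-1-M-2 libraries between 3.55 and 36.3, and the TW-1-M-3 libraries between 65.8 and 120.3. TW-1-M-1 replicate 3 and TW-1-M-3 replicate 2 lay nearest to stage 2. Without these 2 libraries, an alternative chosen after seeing the data, 12113 genes were called, against 10163 with them. The number of genes with FPKM of at least 1 was 24971, 25185 and 25018 in TW-1-M-3, against 21492, 22132 and 23351 in TW-1-M-1. The 10 most abundant genes held 7.76%, 10.7% and 5.19% of the summed FPKM in TW-1-M-3, against 15.5%, 14.2% and 14.2% in TW-1-M-1. Neither measure overlapped between the stages, and the exact permutation test gave a two-sided p of 0.1 for both, the smallest that 3 libraries against 3 allow. Summed FPKM was 709835 to 808320 in TW-1-M-3 and 919474 to 1091560 in TW-1-M-1. The deposited table holds no read counts, and no counting interval or detection floor is given.

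In all, 10163 of the 27150 genes were called, which is 37.4%. Of these, 5721 genes (21.1% of those tested) were higher in TW-1-M-3 and 4442 genes (16.4%) were lower. The median log2 fold change was 1.58 among the genes called higher and -1.57 among those called lower, and 0.11 over all genes tested. A log2 fold change beyond 4 was reached by 155 of the genes called higher and by 196 of those called lower. Libraries did not overlap between the stages for 5659 of the genes called higher and for 4402 of those called lower, while this held for 66.0% of all genes tested, 35.5% with higher and 30.5% with lower values in TW-1-M-3. The split between higher and lower calls depends on how the libraries are scaled. With each library scaled to the same summed FPKM, an alternative chosen after seeing the data, 7994 genes were called higher and 2865 lower, and the median of all genes shifted by 0.31. With quantile normalization 4822 genes were called higher and 4850 lower, and the median shifted by -0.13. The abundant genes moved mostly one way. Of the 102 genes with a mean of at least 1000 FPKM in TW-1-M-1, 79 were called lower in TW-1-M-3 and 0 higher. Of the 51 genes with such a mean in TW-1-M-3, 19 were called higher and 4 lower. Genes chosen as abundant at a stage are more likely to be higher at that stage, so these counts are a description.

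**Figure D1:**
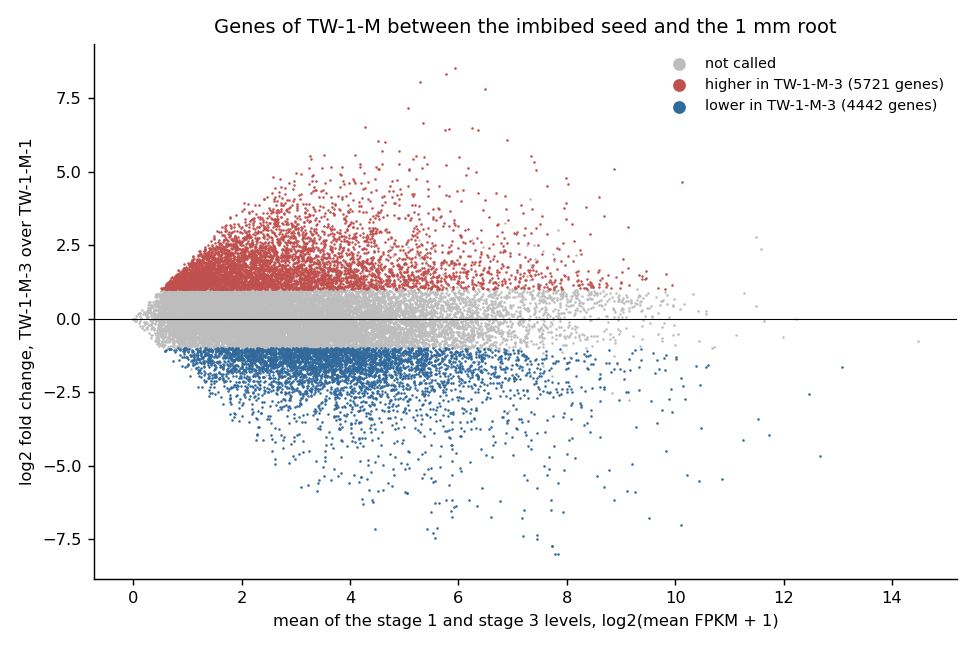
Each point is 1 of the 27150 genes tested, with the mean of its log2(mean FPKM + 1) levels at stages 1 and 3 on the x axis and its log2 fold change, TW-1-M-3 over TW-1-M-1, on the y axis. The 5721 genes called higher are in red and the 4442 called lower in blue, and the genes with falls beyond 4 reach far into the abundant end.

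The gene groups below come from 2 sources. Lists built from the study's annotation text hold genes that its additional files describe, and those files cover genes that differed between the lines, so these lists are not an independent sample. Of the 3106 annotated genes tested, 59.4% were called, 36.4% higher and 22.9% lower, with a median of 0.53, and each such list has to be read against these values. Families of reference symbols were added after the data were seen. Of the 1107 genes tested with a naming symbol, 47.4% were called, 23.5% higher and 23.9% lower.

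Transcripts of seed maturation made up most of the 10 largest falls among named genes. Late embryogenesis abundant (LEA) proteins and dehydrins are small, very soluble proteins that build up as a seed dries and protect membranes and proteins. Of the 25 genes in the list of LEA and seed maturation proteins, 24 were called lower in TW-1-M-3 and 0 higher, with a median log2 fold change of -5.51. The remaining gene, the KS-type dehydrin SLTI629 (gene53999), had 1626, 602 and 1399 FPKM in TW-1-M-3, against 2734, 2190 and 1825 FPKM in TW-1-M-1 (adjusted p = 0.077). Among the 28 genes with the symbols of seed maturation and LEA proteins, 26 were lower and 2 higher, with a median of -5.62.

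The largest fall among named genes was that of TENA_E, the gene of seed maturation protein PM36. It had 12.9, 18.4 and 7.25 FPKM in TW-1-M-3, against 3062, 4493 and 2837 FPKM in TW-1-M-1, a fall of 8.02 on the log2 scale (SE 0.36, adjusted p = 2.5e-04). The stages were far apart, and each of the 3 TW-1-M-3 libraries lay below every TW-1-M-1 library. The gene of seed maturation protein PM28 had 12.8, 28 and 4.24 FPKM in TW-1-M-3, against 3177, 3873 and 2830 FPKM in TW-1-M-1, with a log2 fold change of -7.99 (SE 0.57, adjusted p = 3.5e-04). The dehydrin MAT1 had 10.5, 40.9 and 1.93 FPKM in TW-1-M-3, against 2478, 2589.9 and 2117 FPKM in TW-1-M-1. The spread of MAT1 and PM28 within TW-1-M-3 was wide on a ratio scale, with replicate 2 highest and replicate 3 lowest in both, but far from TW-1-M-1. An LEA-like gene, gene35300, followed the same order, with 12.9, 25 and 5.62 FPKM in TW-1-M-3, against 3267, 3216 and 2142 FPKM in TW-1-M-1.

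SLE2, annotated as an Em protein, a classic marker of late seed maturation, had 10.4, 14.6 and 11.2 FPKM in TW-1-M-3, against 1059.7, 3505 and 2499.8 FPKM in TW-1-M-1 (log2 fold change -7.34, adjusted p = 2.6e-04). Its relatives SLE3 and gene51687 (SLE1) fell by 7.28 and 7.15 on the log2 scale. In all 3 SLE genes TW-1-M-1 replicate 1 was the lowest library of its stage. SLE3 had 1.48, 1.88 and 3.1 FPKM in TW-1-M-3, against 130, 1199 and 700.5 FPKM in TW-1-M-1. The remaining genes among the 10 largest falls were gene17048, similar to the seed biotin-containing protein SBP65 (-7.46), the LEA-like gene37327 (-7.15) and PGMPM10, a seed maturation protein (-7.12).

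The most abundant members of the group fell as well, and stayed at a higher level. PM30 had 169.7, 275 and 174 FPKM in TW-1-M-3, against 9218, 10102 and 8395 FPKM in TW-1-M-1, and its libraries were close together within each stage (log2 fold change -5.51, SE 0.29). PM9 had 277, 296 and 264 FPKM in TW-1-M-3, against 8977, 14804 and 13572 FPKM in TW-1-M-1 (-5.44, SE 0.29). LEA5 had 532, 1079 and 972 FPKM in TW-1-M-3, against 8771, 18779 and 12763 FPKM in TW-1-M-1, with a log2 fold change of -3.96 (SE 0.41). In summed level, the 28 symbol genes took 0.318% to 0.518% of the summed FPKM in TW-1-M-3 libraries, against 5.69% to 9.02% in TW-1-M-1 libraries.

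The 2 genes of this symbol family that rose were LEA-1 and LEA-2, which fell outside the rule for named genes and were looked up because they went against the rest. LEA-1 had 110, 54.6 and 96.9 FPKM in TW-1-M-3, against 0.87, 3 and 21 FPKM in TW-1-M-1, a log2 fold change of 3.95 (adjusted p = 0.0069). LEA-2 had 34.4, 17.4 and 27.7 FPKM in TW-1-M-3, against 3.43, 6.23 and 15.6 FPKM in TW-1-M-1 (1.71, adjusted p = 0.022). Neither overlapped between the stages. The call of LEA-2 was lost without any library but TW-1-M-1 replicate 3 or TW-1-M-3 replicate 2 (adjusted p = 0.052 to 0.077).

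Oil body proteins and storage proteins followed the maturation genes. Oleosins coat the oil bodies in which seeds keep their triacylglycerol. All 7 oil body genes tested were lower in TW-1-M-3, with a median log2 fold change of -4.74. The oleosin gene P91 had 70.3, 213 and 10.04 FPKM in TW-1-M-3, against 2337, 1786 and 1751 FPKM in TW-1-M-1 (log2 fold change -5.14, SE 0.94, adjusted p = 0.0044). TW-1-M-3 replicate 3 was the lowest library for P91, for gene11602 (21, 62.7 and 4.6 FPKM in TW-1-M-3) and for gene53380 (60.3, 115 and 14.2 FPKM in TW-1-M-3). TW-1-M-3 replicate 2 was the highest in each of them. Together the 7 genes took 0.00667% to 0.0633% of the summed FPKM in TW-1-M-3 libraries and 0.596% to 0.611% in TW-1-M-1 libraries.

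Of the 10 genes tested with storage protein symbols, 9 were lower and 0 higher, with a median of -3.44. The member that did not pass, SG-4, is annotated as a galactosyltransferase of soyasapogenol and not as a storage protein. CG-1, the alpha prime subunit of the storage globulin beta-conglycinin, had 11.9, 14.8 and 3.85 FPKM in TW-1-M-3, against 200.4, 515 and 466 FPKM in TW-1-M-1 (-5.19, SE 0.53, adjusted p = 9.4e-04). A beta chain of the same protein, gene29685, fell by 5.31 on the log2 scale and the glycinin gene GY2 by 3.69. The 2S albumin gene35095 had 21.1, 28 and 16.6 FPKM in TW-1-M-3, against 842, 1380.3 and 876 FPKM in TW-1-M-1. In the wider annotation list of storage proteins and seed inhibitors 9 of 16 were lower and 0 higher (median -2.10), and the 7 that did not pass included 2 Kunitz trypsin inhibitors and an albumin-1-like gene. The Bowman-Birk inhibitor D-II, which blocks trypsin and chymotrypsin, fell by 3.71, and the Kunitz inhibitor KTI1 by 4.28.

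Raffinose family oligosaccharides protect drying seeds and are used up as sugar during germination. Galactinol synthase makes their galactosyl donor, and raffinose and stachyose synthases add the galactose. Of the 8 genes of this synthesis tested, 7 fell and 1 rose in TW-1-M-3, with a median of -4.23 on the log2 scale. The galactinol synthase gene8335 had 8.35, 18.1 and 1.02 FPKM in TW-1-M-3, against 703, 546 and 352 FPKM in TW-1-M-1 (log2 fold change -6.17, SE 0.76, adjusted p = 0.0014). The galactinol-sucrose galactosyltransferases fell by 4.89 (gene11959) and 5.6 (gene15912) on the log2 scale. A further one, gene36932, which was outside the rule for named genes, went the other way, with 128, 86.6 and 139.7 FPKM in TW-1-M-3, against 1.93, 0.83 and 22.8 FPKM in TW-1-M-1 (4.53, adjusted p = 0.0051). The alpha-galactosidases, which break these sugars down, were mostly not called. Only gene46563 of the 4 tested passed, and it fell by 3.65.

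Small heat shock proteins, chaperones that hold unfolding proteins and are stored in ripe seeds, were lower in 15 of 19 genes and higher in 0, with a median of -3.68. The class I gene39662 had 79.8, 152 and 15.7 FPKM in TW-1-M-3, against 5403, 2778 and 2774 FPKM in TW-1-M-1 (log2 fold change -5.87, SE 0.76, adjusted p = 0.0016), and gene31498 of the same class fell by 2.87. The larger chaperones of the HSP70 and HSP90 families were mixed, with 4 of 10 lower and 2 higher. The HSP70-like gene4927 had 1.46, 5.68 and 0.48 FPKM in TW-1-M-3, against 181, 147 and 169 FPKM in TW-1-M-1. The more abundant heat shock cognate 70 gene7838 went the other way but was not called. It had 1015, 490.5 and 502 FPKM in TW-1-M-3, against 302, 341 and 388 FPKM in TW-1-M-1 (0.88, adjusted p = 0.057).

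**Figure D2:**
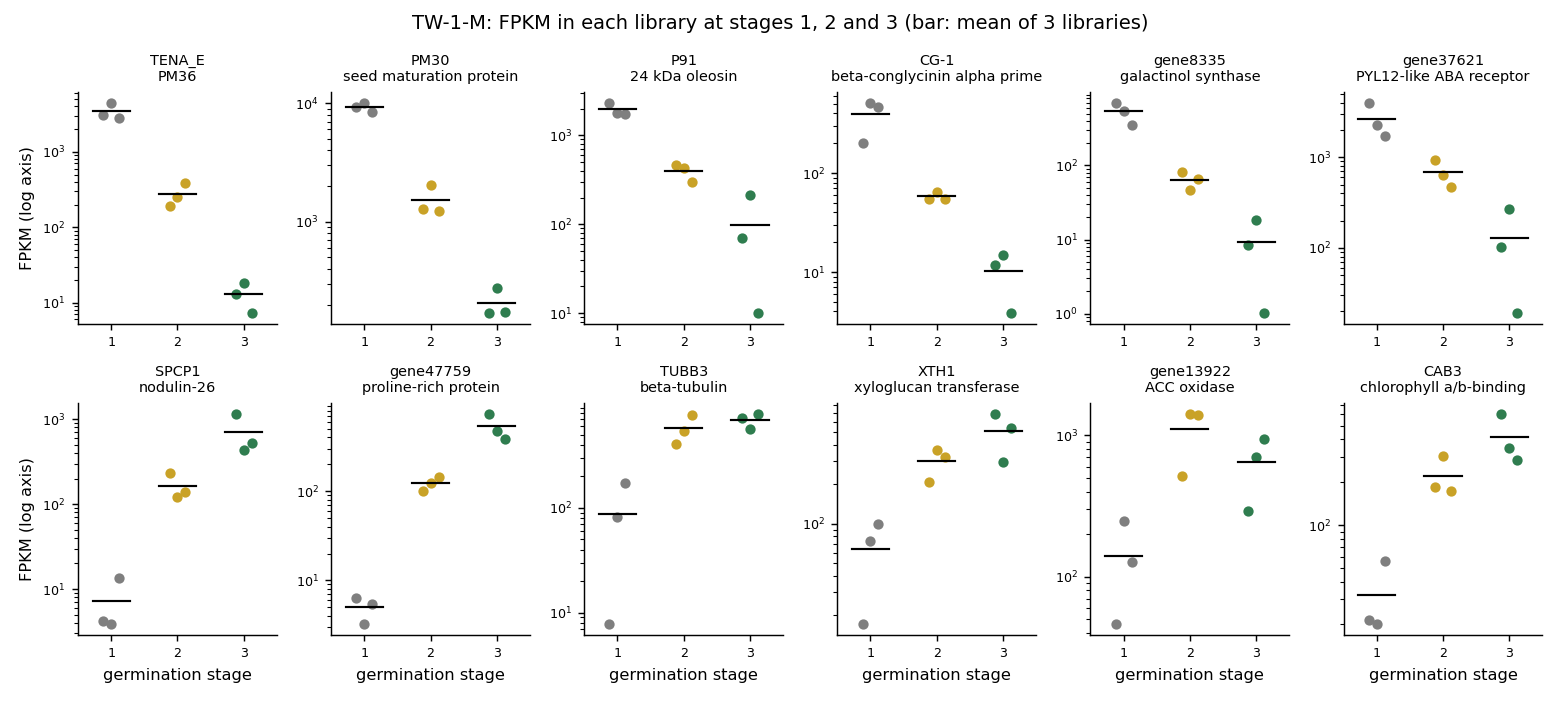
FPKM of 12 genes in the 9 libraries of TW-1-M, with the germination stage on the x axis and FPKM on a log y axis in each panel, 1 point for each library and a bar at the mean of 3 libraries. In the 6 upper panels the stage 3 libraries all lie below the stage 1 libraries, and in the 6 lower panels they all lie above. The stage 2 mean lies between the other means in each panel but that of the ACC oxidase gene13922, while single stage 2 libraries overlap stage 3 in some panels, as for TUBB3 and CAB3.

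Abscisic acid and gibberellin genes come next. In the abscisic acid list 4 of 7 genes fell and 1 rose in TW-1-M-3, with a median of -1.75. Without TW-1-M-3 replicate 1, and likewise without TW-1-M-3 replicate 3, 2 genes were called lower. The receptor-like gene37621, similar to PYL12, had 103, 266 and 18.9 FPKM in TW-1-M-3, against 4029.5, 2294 and 1719 FPKM in TW-1-M-1, a fall of 4.94 on the log2 scale (SE 0.87, adjusted p = 0.0039). The protein phosphatase 2C 37 gene49755, of a family that abscisic acid receptors inhibit, had 56.4, 22.1 and 37 FPKM in TW-1-M-3, against 183, 203 and 202 FPKM in TW-1-M-1. The abscisic acid 8'-hydroxylase gene1813 had 4.88, 17.9 and 19.2 FPKM in TW-1-M-3, against 92.9, 40.8 and 21.8 FPKM in TW-1-M-1 (-1.77, adjusted p = 0.047). For the PYL4-like receptor gene1486 the log2 fold change was -1.75 (adjusted p = 0.019). GA2OX8, a gibberellin 2-oxidase of the kind that inactivates gibberellin, had 3.77, 17.2 and 1.11 FPKM in TW-1-M-3, against 392, 226 and 196 FPKM in TW-1-M-1 (-5.52, SE 0.73, adjusted p = 0.0017). The gibberellin oxidases as a family showed no common direction, with 2 of 7 higher and 3 lower, and the annotation list of gibberellin had 2 of 4 higher and 1 lower. The count of 2 became 1 without TW-1-M-3 replicate 1 or TW-1-M-3 replicate 3, with a pseudocount of 0.1, and with 18 libraries in one fit.

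The GASA family encodes small cysteine-rich proteins, many of which respond to gibberellin. Of its 17 genes tested 10 were higher in TW-1-M-3 and 1 lower, with a median log2 fold change of 2.10. GASA36 had 622, 382 and 608 FPKM in TW-1-M-3, against 15.8, 36.4 and 96.2 FPKM in TW-1-M-1 (3.74, SE 0.59, adjusted p = 0.0028). The most abundant member, GASA14, did not pass, with 3886, 6451 and 6231 FPKM in TW-1-M-3, against 108, 1633 and 2757 FPKM in TW-1-M-1 (adjusted p = 0.066). Its TW-1-M-1 libraries spread widely, with replicate 1 lowest. Without TW-1-M-1 replicate 1 it was called with a log2 fold change of 1.34 (adjusted p = 0.024), and without TW-1-M-1 replicate 3 with 3.68 (adjusted p = 0.021). It was also called with the replicate block (2.77, adjusted p = 0.038), with the 9 libraries of TW-1-M in one fit (adjusted p = 0.035) and with quantile normalization (adjusted p = 0.023).

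Ethylene is made from 1-aminocyclopropane-1-carboxylate (ACC) by ACC oxidase. Of 9 genes of ACC synthesis and oxidation 6 were higher in TW-1-M-3 and 0 lower, with a median of 2.01. The ACC oxidase gene13922 had 293, 706 and 945 FPKM in TW-1-M-3, against 46.1, 249 and 126 FPKM in TW-1-M-1 (2.35, SE 0.66, adjusted p = 0.021), but its call was lost without TW-1-M-3 replicate 2 (adjusted p = 0.058) and without TW-1-M-3 replicate 3 (adjusted p = 0.070). It was also lost with 18 libraries in one fit (adjusted p = 0.105) and without the 2 libraries nearest to stage 2 (adjusted p = 0.085). Another ACC oxidase, gene20259, was not called, with 292, 277 and 439 FPKM in TW-1-M-3, against 13.3, 240 and 169 FPKM in TW-1-M-1 (adjusted p = 0.12). Genes annotated as ethylene-responsive transcription factors moved the other way, with 10 of 18 lower and 3 higher and a median of -1.32. Among them gene42281 had 28.8, 96.9 and 35 FPKM in TW-1-M-3, against 1614, 1088 and 877 FPKM in TW-1-M-1, and the RAP2 type gene42969 fell by 2.3. NAC transcription factors, of which 12 of 25 were lower and 1 higher, had a median of -0.99. NAC2 had 88.5, 173 and 73.7 FPKM in TW-1-M-3, against 1568, 935 and 763 FPKM in TW-1-M-1, and NAC022 fell by 2.78. For bZIP factors the counts were near the background of symbol genes, with 8 of 41 higher and 10 lower.

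Auxin carriers move auxin between cells. Of 14 with symbols 6 were higher and 0 lower, with a median of 1.48. The influx carrier LAX6 had 16.9, 11.5 and 30.7 FPKM in TW-1-M-3, against 0.07, 0.21 and 3.07 FPKM in TW-1-M-1 (3.46, adjusted p = 0.003). The count of higher carriers was 11 with libraries scaled to the same summed FPKM, and 10 without TW-1-M-1 replicate 3.

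The largest rises among named genes were in water channels, wall proteins and a lipoxygenase. SPCP1, annotated as a nodulin-26 and with the synonym GmTIP1;3 of a vacuolar water channel, had 1162, 434 and 528 FPKM in TW-1-M-3, against 4.17, 3.86 and 13.4 FPKM in TW-1-M-1, a rise of 6.5 on the log2 scale (SE 0.52, adjusted p = 5.1e-04). All TW-1-M-3 libraries of SPCP1 lay far above the TW-1-M-1 libraries, among which replicate 3 was highest. Of 19 aquaporins in the annotation list 11 were higher and 2 lower, with a median of 3.10, and of 27 aquaporin symbols 15 were higher and 2 lower. PIP1-5 and PIP2-14 are water channels of the plasma membrane type. PIP1-5 had 172, 29.2 and 70.3 FPKM in TW-1-M-3, against 0.62, 0.2 and 3.09 FPKM in TW-1-M-1, and PIP2-14 had 531, 86.9 and 196 FPKM in TW-1-M-3, against 2.99, 8.09 and 28.9 FPKM in TW-1-M-1. In both, as in SPCP1 and gene29342 (PIP2-2, 942, 156 and 517 FPKM in TW-1-M-3), replicate 1 was the highest TW-1-M-3 library. The vacuolar channel gene14979 (TIP4-1-like) rose by 5.26. PIP1-10, an abundant member of both lists, was not called. It had 606, 129 and 260 FPKM in TW-1-M-3, against 124, 169 and 154 FPKM in TW-1-M-1 (adjusted p = 0.18).

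Both aquaporins of the annotation list that fell are of the alpha TIP type, the water channel of storage vacuoles in seeds. One of them, gene25747, had 8.08, 13.1 and 0.5 FPKM in TW-1-M-3, against 325, 546 and 409 FPKM in TW-1-M-1 (-6.18, SE 0.77, adjusted p = 0.0014). The other, gene28989, had 3.91, 7.89 and 1.99 FPKM in TW-1-M-3, against 79, 240.4 and 183 FPKM in TW-1-M-1 (-4.91, adjusted p = 9.9e-04), and was named because only 2 fell.

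Cell wall genes rose more often than they fell, as annotated genes did in general. A proline-rich protein gene, gene47759, had 739, 477 and 385 FPKM in TW-1-M-3, against 6.3, 3.23 and 5.43 FPKM in TW-1-M-1 (log2 fold change 6.46, SE 0.32, adjusted p = 2.6e-04). The glycine-rich wall protein gene18341 rose by 6.43 and the arabinogalactan protein gene12711 by 5.49. Of 20 structural wall proteins 9 were higher and 2 lower (median 0.86). Wall loosening enzymes, among them expansins, xyloglucan transferases and pectin-degrading enzymes, were higher in 16 of 33 genes and lower in 7, with a median of 1.17. XTH1, an endo-xyloglucan transferase, had 689.6, 294 and 534 FPKM in TW-1-M-3, against 17.1, 74 and 100.1 FPKM in TW-1-M-1 (3.21, SE 0.65, adjusted p = 0.0062). The expansin EXP2 had 193, 145 and 184 FPKM in TW-1-M-3, against 17.5, 19.3 and 63.5 FPKM in TW-1-M-1, and EXPB4 had 12.4, 13 and 10.4 FPKM in TW-1-M-3, against 0.32, 0 and 0.72 FPKM in TW-1-M-1. Of 9 cellulose synthase genes 5 were higher and 0 lower (median 1.74). The cellulose synthase catalytic subunit gene13584 had 77.3, 68.1 and 70.8 FPKM in TW-1-M-3, against 16, 21.6 and 26.4 FPKM in TW-1-M-1.

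Class III peroxidases act in the wall and were higher in 7 of 9 genes and lower in 0, with a median of 3.85. Peroxidase 73-like gene12734 had 126, 90.7 and 165 FPKM in TW-1-M-3, against 1.65, 1.57 and 5.34 FPKM in TW-1-M-1 (5.15, SE 0.4, adjusted p = 4.7e-04). The more abundant gene24224 rose by 2.58. The 3-ketoacyl-CoA synthases lengthen fatty acids for cuticle and suberin. They were higher in 13 of 15 genes and lower in 0, with a median of 2.03, and gene14729 of this group had 15.2, 13.8 and 12 FPKM in TW-1-M-3, against 3.39, 0.31 and 1.83 FPKM in TW-1-M-1.

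The cytoskeleton list was the largest, with 42 of 63 genes higher and 3 lower and a median of 1.57. TUBB3, a beta-tubulin, had 724, 563 and 792 FPKM in TW-1-M-3, against 7.75, 81.1 and 173 FPKM in TW-1-M-1 (3.78, SE 0.98, adjusted p = 0.015). TW-1-M-1 replicate 1 lay far below replicates 2 and 3, and the stages did not overlap. With 18 libraries in one fit TUBB3 was not called (adjusted p = 0.058). Tubulin A gene13300 had 647, 383 and 439 FPKM in TW-1-M-3, against 37, 50.9 and 92.3 FPKM in TW-1-M-1. The 3 genes that fell were the kinesins gene13226 (KIN12A, -4.44) and gene49440 (KIN12B, -1.67) and formin-like gene51616 (-1.22), which were named because only 3 fell. The log2 fold change of gene51616 was -0.97 without TW-1-M-1 replicate 1, inside the limit of 1. KIN12A had 11.4, 24.6 and 17.1 FPKM in TW-1-M-3, against 355, 484 and 335 FPKM in TW-1-M-1.

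The lists of cytosolic and plastid ribosomal proteins went opposite ways. The plastid list was drawn by the type of ribosomal subunit, and not every member's annotation names the plastid. Of 30 cytosolic ribosomal proteins 21 were higher and 2 lower, with a median log2 fold change of 1.34. Without TW-1-M-3 replicate 1 the count of higher ones was 12. Of 11 genes in the plastid list 7 were lower and 1 higher, with a median of -1.21. The abundant L39 gene9402 had 991, 962 and 1338 FPKM in TW-1-M-3, against 307, 514 and 485 FPKM in TW-1-M-1 (1.35, SE 0.29, adjusted p = 0.0081), and S29 gene56910 rose by 1.61. In the plastid list the L24-like gene4205, whose annotation names no compartment, had 5.14, 9.32 and 2.83 FPKM in TW-1-M-3, against 175, 346 and 231 FPKM in TW-1-M-1 (-5.28, adjusted p = 4.7e-04). Quantile normalization left 5 of the 11 genes of the plastid list lower.

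Of 29 genes of DNA replication and of the cell cycle 11 were higher and 4 lower, with a median of 0.91, and this share of higher genes was near that of all annotated genes (36.4%). The higher ones included 4 MCM subunits of the replication helicase and gene23681, the proliferating cell nuclear antigen that clamps DNA polymerase to its template. Its level was 59.8, 47.9 and 36.9 FPKM in TW-1-M-3, against 11.2, 16 and 14.5 FPKM in TW-1-M-1 (1.71, SE 0.25, adjusted p = 0.0022). MCM2-like gene19993 had 10.4, 8.81 and 10.03 FPKM in TW-1-M-3, against 0.76, 1.79 and 2.92 FPKM in TW-1-M-1, and MCM6 gene24469 had 7.6, 6.43 and 7.01 FPKM in TW-1-M-3, against 0.36, 0.44 and 1.21 FPKM in TW-1-M-1. These MCM genes were chosen after their values were seen. The 4 lower genes were gene13658 and gene11097, which are kinases of the cyclin-dependent E type, gene26066 of the F type, and the organelle DNA polymerase gene23481.

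Histone genes showed no common direction. Of 17 histone genes 7 were higher and 5 lower. The linker histone H1 gene30922 had 32.9, 54.8 and 54.6 FPKM in TW-1-M-3, against 1252, 975 and 704 FPKM in TW-1-M-1 (-4.33, adjusted p = 3.7e-04), and the replacement histone H3.3 gene41441 had 35.5, 63.5 and 54.8 FPKM in TW-1-M-3, against 824, 519 and 263 FPKM in TW-1-M-1. Rises were measured in H4-like gene50061 (3.65) and H2AX-like gene54357 (4.14), while an H2B gene, gene33666, fell by 5.86 and another, gene34754, rose by 2.81. These 4 genes were chosen after their values were seen.

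Photosynthesis genes were the list with the highest share of rises among those plotted. All 9 tested were higher in TW-1-M-3, with a median log2 fold change of 3.14. The chlorophyll a/b-binding protein CAB3 had 608, 349 and 286 FPKM in TW-1-M-3, against 21.3, 20.1 and 55.7 FPKM in TW-1-M-1 (3.72, SE 0.45, adjusted p = 0.0014), and gene21155 of the same family had 1248, 624 and 480 FPKM in TW-1-M-3, against 34, 72.8 and 173 FPKM in TW-1-M-1. The list took 0.161% to 0.283% of the summed FPKM in TW-1-M-3 libraries, against 0.00734% to 0.0351% in TW-1-M-1 libraries. Whether seeds were exposed to light when sampled is not given in the sources used here.

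**Figure D3:**
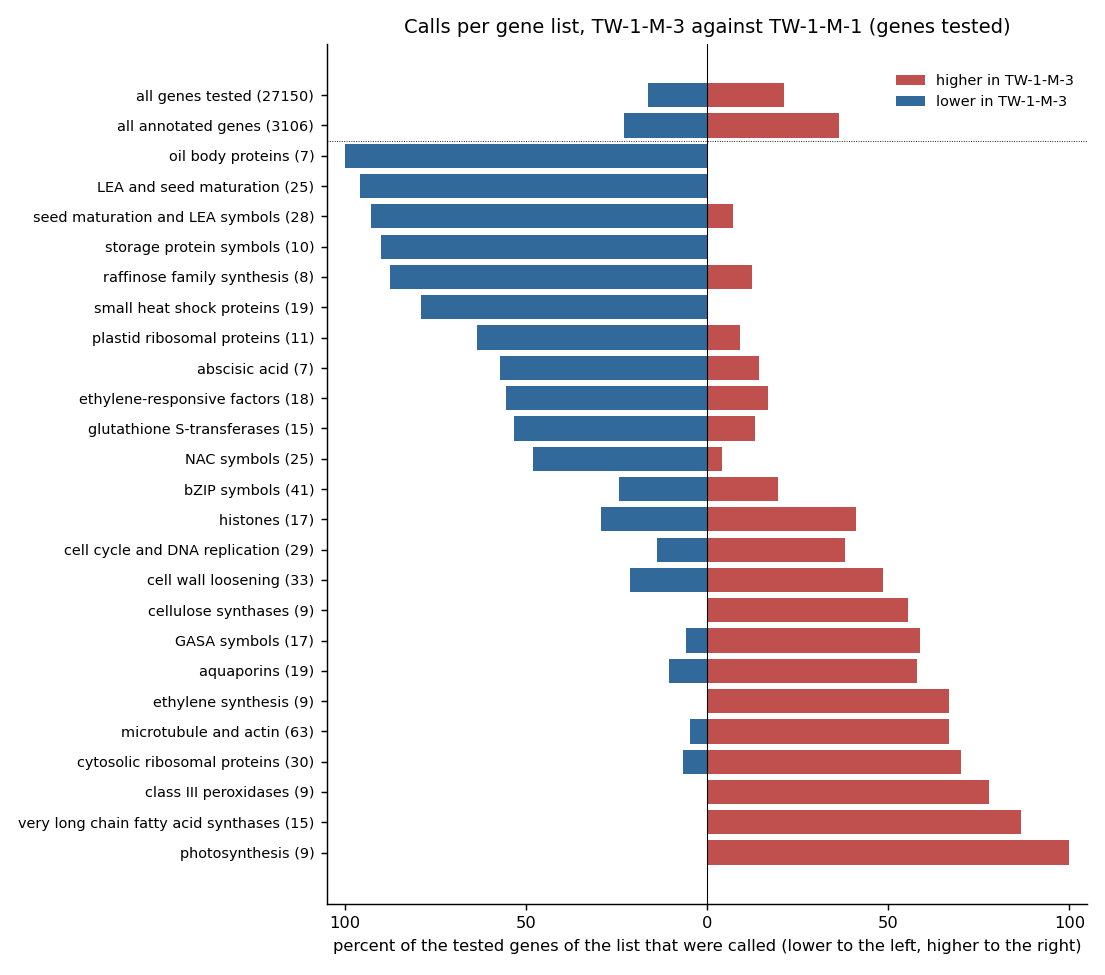
Share of the tested genes of each list in a chosen set that were called lower (blue, to the left) and higher (red, to the right) in TW-1-M-3 against TW-1-M-1, with the number of genes tested in brackets and all genes and all annotated genes at the top. Maturation, oil body and storage genes lie to the left, and the 9 photosynthesis genes and the wall, cytoskeleton and cytosolic ribosome genes to the right.

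Enzymes that act on lipids and oxidants were mixed. Lipoxygenases add oxygen to polyunsaturated fatty acids, and of 8 in the annotation list 3 were higher and 2 lower. Without TW-1-M-1 replicate 2 or without TW-1-M-3 replicate 1, 1 was called higher. In this list LOX2 fell by 3.82. LOX3 and VLXC, the vegetative lipoxygenase C, are named by their symbols and are outside it. LOX3 had 395, 1822 and 106 FPKM in TW-1-M-3, against 10117, 6152 and 6683 FPKM in TW-1-M-1 (-4.13, SE 0.91, adjusted p = 0.0085). VLXC had 744, 457 and 653 FPKM in TW-1-M-3, against 3.14, 5.4 and 126 FPKM in TW-1-M-1 (5.34, SE 1.17, adjusted p = 0.0081). Glutathione S-transferases were lower in 8 of 15 genes and higher in 2 (median -1.09), and GSTU47 had 19, 75.7 and 20.6 FPKM in TW-1-M-3, against 643, 454 and 251 FPKM in TW-1-M-1. Of 8 antioxidant enzymes 4 were lower and 2 higher. The seed protein 1-Cys peroxiredoxin, gene21202, had 0.38, 0.38 and 0.22 FPKM in TW-1-M-3, against 19.1, 144 and 89.97 FPKM in TW-1-M-1, and cytosolic ascorbate peroxidase APX1 went the other way with 647, 311 and 373 FPKM in TW-1-M-3, against 87.7, 80.3 and 150.3 FPKM in TW-1-M-1 (2.04, adjusted p = 0.0041).

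Most other lists gave fewer or mixed calls. An exception was the family of protease inhibitor symbols, with 4 of 5 genes lower and 0 higher. Of 26 IQD symbols 10 were higher and 4 lower, and of 25 ALDH symbols 6 were higher and 3 lower. Among 17 histone deacetylase symbols 1 was higher and 4 lower, and 0 of 5 SWEET symbols were called. Cyclin symbols were higher in 2 of 3 genes, but in 0 with quantile normalization. Of 12 genes of oil breakdown and the glyoxylate cycle 4 were higher and 3 lower, and of 41 proteases 18 were higher and 9 lower. Among 22 flavonoid and isoflavonoid genes 7 were higher and 4 lower, and among 27 auxin genes 8 were higher and 3 lower. The auxin genes called higher numbered 5 without TW-1-M-3 replicate 1, without TW-1-M-3 replicate 3 or with 18 libraries in one fit.

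Several abundant transcripts belong to none of these lists. The defensin-like gene38087 had 885, 2702 and 612 FPKM in TW-1-M-3, against 43402, 29325 and 18456 FPKM in TW-1-M-1 (-4.66, SE 0.6, adjusted p = 0.0016). CP3 fell by 3.41 on the log2 scale. MET2 had 5142, 6482 and 3325 FPKM in TW-1-M-3, against 15311, 14256 and 15443 FPKM in TW-1-M-1, a log2 fold change of -1.64 (adjusted p = 0.0069) that quantile normalization turned to 0.28 (adjusted p = 0.52) and that was not called when no filter on low values was used (adjusted p = 0.15). A beta-1,3-endoglucanase, gene7459, of a family that cuts callose and fungal walls, had 1526, 1069 and 1390.3 FPKM in TW-1-M-3, against 38.9, 43.3 and 58.4 FPKM in TW-1-M-1 (4.8, SE 0.26, adjusted p = 2.6e-04). DAO, annotated as a copper amine oxidase, had 1626, 1052 and 1536 FPKM in TW-1-M-3, against 4.48, 27.1 and 439 FPKM in TW-1-M-1. The lipid-transfer protein gene51783 had 4575, 1399 and 3030.4 FPKM in TW-1-M-3, against 44.4, 22.1 and 1181 FPKM in TW-1-M-1. For DAO and gene51783 the TW-1-M-1 libraries spread widely, with replicate 3 highest. The call of DAO (adjusted p = 0.018) was lost without TW-1-M-1 replicate 2, TW-1-M-3 replicate 1 or TW-1-M-3 replicate 3 (adjusted p = 0.052 to 0.059), and with 18 libraries in one fit (adjusted p = 0.098). That of gene51783 (adjusted p = 0.023) was lost without any library but TW-1-M-1 replicate 3 or TW-1-M-3 replicate 2 (adjusted p = 0.064 to 0.079). GRP rose by 1.53 (SE 0.28). The others among the 10 largest named rises were gene42646, a putative surface protein (6.44), the probable inactive purple acid phosphatase 27-like gene15823 (5.51) and SLR1 (5.23).

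Phytate genes, the pathway in which both lines are mutated, showed no common direction. Phytate is made from glucose 6-phosphate by inositol-3-phosphate synthase (MIPS) and by kinases that add phosphates, and phytases remove these phosphates in germination. Of 15 genes tested in this list 3 were higher, 2 lower and 10 were not called. Not all of the 15 act in phytate synthesis. Of them, gene17931 and gene46085 act on phosphoinositide lipids or soluble inositol polyphosphates. Others outside synthesis include the inositol oxygenase gene13943, 1 of the 3 called higher, and PAP3, which has a phytase synonym. With libraries scaled to the same sum 6 were higher and 1 lower, and with quantile normalization 3 were higher and 5 lower. MIPS, the gene with the synonym GmMIPS1, had 4.26, 4.3 and 14.9 FPKM in TW-1-M-3, against 1.74, 4.78 and 5.56 FPKM in TW-1-M-1. These libraries overlapped (log2 fold change 0.7, SE 0.51, adjusted p = 0.28). Another inositol-3-phosphate synthase, gene13521, had 35.8, 27.3 and 8.99 FPKM in TW-1-M-3, against 5.51, 1.14 and 4.6 FPKM in TW-1-M-1 (2.35, SE 0.59, adjusted p = 0.013), and without TW-1-M-3 replicate 1 its log2 fold change was 1.98 and its call was lost. The inositol monophosphatase gene24108, of the enzymes that free inositol from its phosphate, had 8.33, 6.31 and 8.45 FPKM in TW-1-M-3, against 0.58, 0.14 and 3.09 FPKM in TW-1-M-1 (2.15, adjusted p = 0.0069). The inositol oxygenase gene13943, which opens the inositol ring, had 2.03, 3.34 and 2.2 FPKM in TW-1-M-3, against 0, 0 and 0.31 FPKM in TW-1-M-1.

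The kinase ITPK3 had 4.41, 7.68 and 4.68 FPKM in TW-1-M-3, against 21.7, 12.8 and 10.9 FPKM in TW-1-M-1 (-1.27, SE 0.31, adjusted p = 0.013). Its log2 fold change was -0.99 without TW-1-M-1 replicate 1 and -0.90 with libraries scaled to the same sum, both inside the limit of 1. IPK1, the kinase of the last step, had 5.72, 2.02 and 4.97 FPKM in TW-1-M-3, against 0.48, 2.56 and 3.1 FPKM in TW-1-M-1 (0.83, SE 0.46, adjusted p = 0.16). PAP3, a purple acid phosphatase with a phytase synonym, was by far the most abundant gene of the list, with 339.9, 282 and 304 FPKM in TW-1-M-3, against 165, 163 and 209.9 FPKM in TW-1-M-1 (0.79, SE 0.22, adjusted p = 0.02). Its stages did not overlap, and its change was below the limit of 1 on the log2 scale. With libraries scaled to the same sum it was 1.2 (adjusted p = 0.0055), past the limit. IPK1 passed without the 2 libraries nearest to stage 2, with 1.46 (adjusted p = 0.039).

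The libraries of TW-1-M-2 show how far the changes had gone between the end points. For each called gene the position of stage 2 was taken as the share of the log2 change from stage 1 to stage 3 that TW-1-M-2 had reached, 0 at the TW-1-M-1 mean and 1 at the TW-1-M-3 mean. The position shares both end points with the calls, and is given as a description with no test. The stage 2 mean lay between the others for 5309 (92.8%) of the genes called higher and for 4356 (98.1%) of those called lower. The median position was 0.69 for genes called higher and 0.58 for those called lower. A position beyond 1, past the stage 3 level, was found for 375 of the genes called higher and for 74 of those called lower.

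The list medians ranged widely. The called genes of ethylene synthesis had a median of 0.92, cytosolic ribosomal proteins 0.84 and photosynthesis genes 0.81. The LEA and seed maturation list had 0.48, oil body proteins 0.49 and storage protein symbols 0.40. TENA_E averaged 3464 ± 898 FPKM at stage 1, 273 ± 97 FPKM at stage 2 and 12.8 ± 5.57 FPKM at stage 3 (SD, n = 3 each), a position of 0.46. CG-1 averaged 394 ± 169, 58.2 ± 5.96 and 10.2 ± 5.68 FPKM at stages 1, 2 and 3. The ACC oxidase gene13922 averaged 140.4 ± 102 FPKM at stage 1, 1111 ± 516 at stage 2 and 648 ± 329.8 at stage 3, so that its highest mean was at stage 2. L39 gene9402 averaged 436 ± 112, 1079 ± 374 and 1097 ± 209 FPKM at the 3 stages. Class III peroxidases (0.55) and 3-ketoacyl-CoA synthases (0.55) had the lowest medians among the plotted lists with more higher than lower calls.

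**Figure D4:**
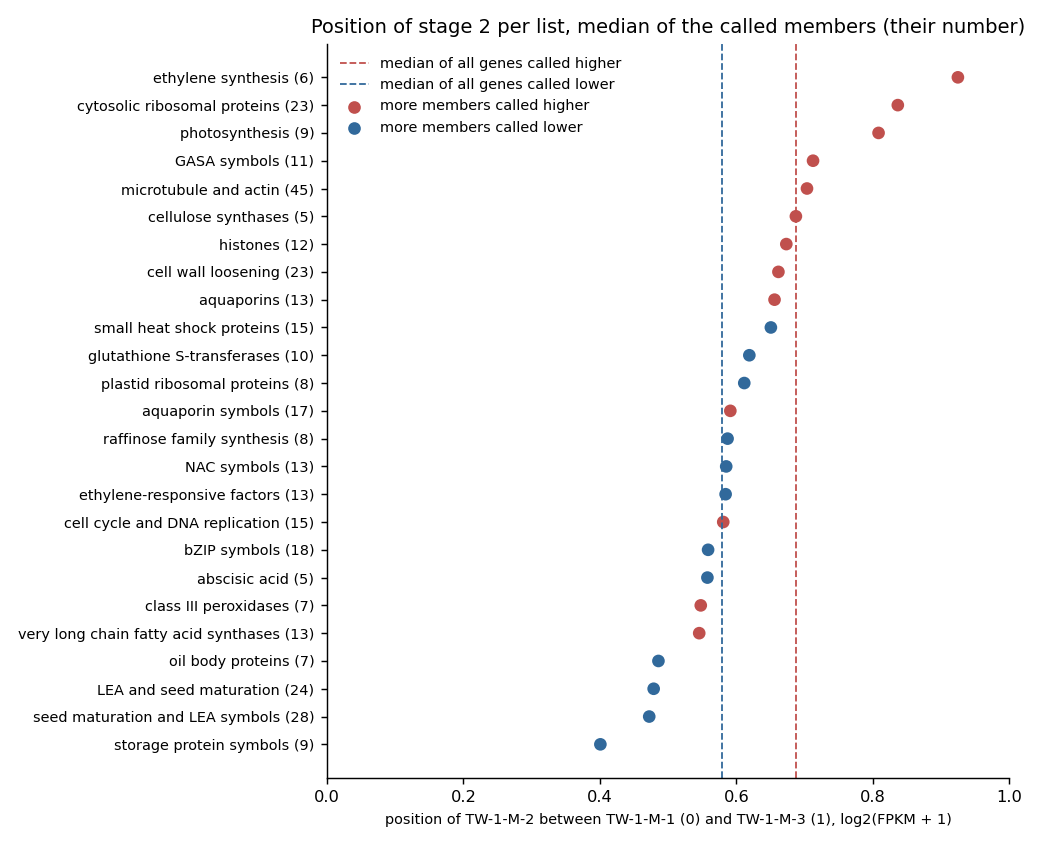
Median position of TW-1-M-2 between the stage 1 mean (0) and the stage 3 mean (1) of TW-1-M on log2(FPKM + 1), for the called genes of a chosen set of lists. Each list drawn has at least 5 such genes, whose number is in brackets. Other lists with as many, such as proteases and auxin genes, are not drawn. Blue lists, with more lower than higher calls, reach down to 0.40 for storage protein symbols, and red lists reach up to 0.92 for ethylene synthesis, with the medians of all called genes as broken lines at 0.58 and 0.69.

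The same span was compared in TW-1, which shares no library with TW-1-M. TW-1-3 against TW-1-1 gave 269 calls (0.991% of the genes tested), 72 higher (0.265%) and 197 lower (0.726%). TW-1-3 replicate 1 stood apart from its group, and whether its label is right could not be checked, so the counts that use it rest on that label. It had 21576 genes with FPKM of at least 1, against 24517 and 25452 in the other 2 TW-1-3 libraries and 21206 to 22618 in TW-1-1. Without it, an alternative chosen after seeing the data for this comparison, 11625 genes (42.8%) were called, 6559 higher (24.2%) and 5066 lower (18.7%). Of the 5721 genes called higher in TW-1-M, 4749 (83.0%) were also called higher in TW-1 without that library, which is 72.4% of the TW-1 calls. Of the 4442 genes called lower in TW-1-M, 3534 (79.6%) were also lower in TW-1 without it, which is 69.8% of the TW-1 calls. Calls in opposite directions were found for 7 genes.

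The test of the difference between the lines, the change in TW-1-M minus the change in TW-1 over 12 libraries, called 1 gene of 27150 (0.00368%). Of the 27150 genes 1798 (6.62%) had an unadjusted p below 0.05, and 1114 of them also passed the limit of 1. Without TW-1-3 replicate 1 the test called 12 genes (0.0442%), 8 higher (0.0295%) and 4 lower (0.0147%). Higher means here that the log2 change in TW-1-M minus that in TW-1 was above 0. Some of these genes were near 0 in TW-1-M and changed in TW-1 alone. Of these, gene46403 had 0 FPKM in each TW-1-M library of the test, and ZPR3A had at most 0.66 FPKM. The gene called with all libraries, gene28949, has no product annotation. It had 0.41, 0.47 and 0.55 FPKM in TW-1-M-3, against 11.4, 16.3 and 11.3 FPKM in TW-1-M-1, while the TW-1 libraries held 0, 0 and 0.11 FPKM in TW-1-3 and 0.37, 0 and 0.14 FPKM in TW-1-1. The difference was -3.06 on the log2 scale (SE 0.28, adjusted p = 0.008), and -3.09 without TW-1-3 replicate 1 (adjusted p = 0.011). It was no longer called with a pseudocount of 0.1 (adjusted p = 0.52), with the replicate block (adjusted p = 0.094), or without the libraries of replicate 1 (adjusted p = 0.11), replicate 2 (adjusted p = 0.79) or replicate 3 (adjusted p = 0.96). A fold change in TW-1 has little meaning for it, since its level was below 1 FPKM in all 6 of its libraries.

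Among the 12 genes called without TW-1-3 replicate 1 were some whose changes had opposite signs in the lines. They are named for that, after their values were seen. A heat shock cognate 70 kDa gene, gene3658, had 2.41, 2.61 and 5.33 FPKM in TW-1-M-3, against 0.23, 0.18 and 0.2 FPKM in TW-1-M-1, and 10.9, 20.8 and 14.7 FPKM in TW-1-3, against 40.4, 34 and 49.3 FPKM in TW-1-1. Polyubiquitin 11 gene36727 had 221, 168 and 125 FPKM in TW-1-M-3, against 54.5, 57.1 and 39.7 FPKM in TW-1-M-1, and 72, 53.4 and 43.8 FPKM in TW-1-3, against 142, 113 and 137 FPKM in TW-1-1. The plastid deaminase gene23507, annotated as reactive intermediate deaminase A, had 26, 36.6 and 33 FPKM in TW-1-M-3, against 103, 107 and 92.8 FPKM in TW-1-M-1, and 16.1, 42.5 and 30.3 FPKM in TW-1-3, against 14.7, 13.4 and 11.2 FPKM in TW-1-1. With all 12 libraries the adjusted p-values of these 3 genes were 0.064, 0.064 and 0.15.

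For the genes described above the changes of the lines are given side by side. Genes picked for a large change in TW-1-M are more likely to show a smaller one in TW-1, so these values are a description. TENA_E changed by -8.02 in TW-1-M and by -5.34 in TW-1, or -6.59 without TW-1-3 replicate 1. PM30 changed by -5.51 in TW-1-M and by -2.68 or -3.53 in TW-1, and LEA5 by -3.96 in TW-1-M and by -0.46 or -1.12 in TW-1. SPCP1 changed by 6.5 in TW-1-M and by 3.65 or 6.36 in TW-1, and TUBB3 by 3.78 in TW-1-M and by 3.16 or 5.49 in TW-1. The adjusted p of the difference was 0.75 for TENA_E, 0.6 for PM30, 0.43 for LEA5, 0.89 for SPCP1 and 0.97 for TUBB3, and none of these 5 differences passed, which does not show that the lines changed alike. Of the 25 LEA and seed maturation genes the median change was -5.51 in TW-1-M, against -3.53 in TW-1 and -3.90 in TW-1 without TW-1-3 replicate 1, and 0 of them passed the test of the difference in either fit.

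**Figure D5:**
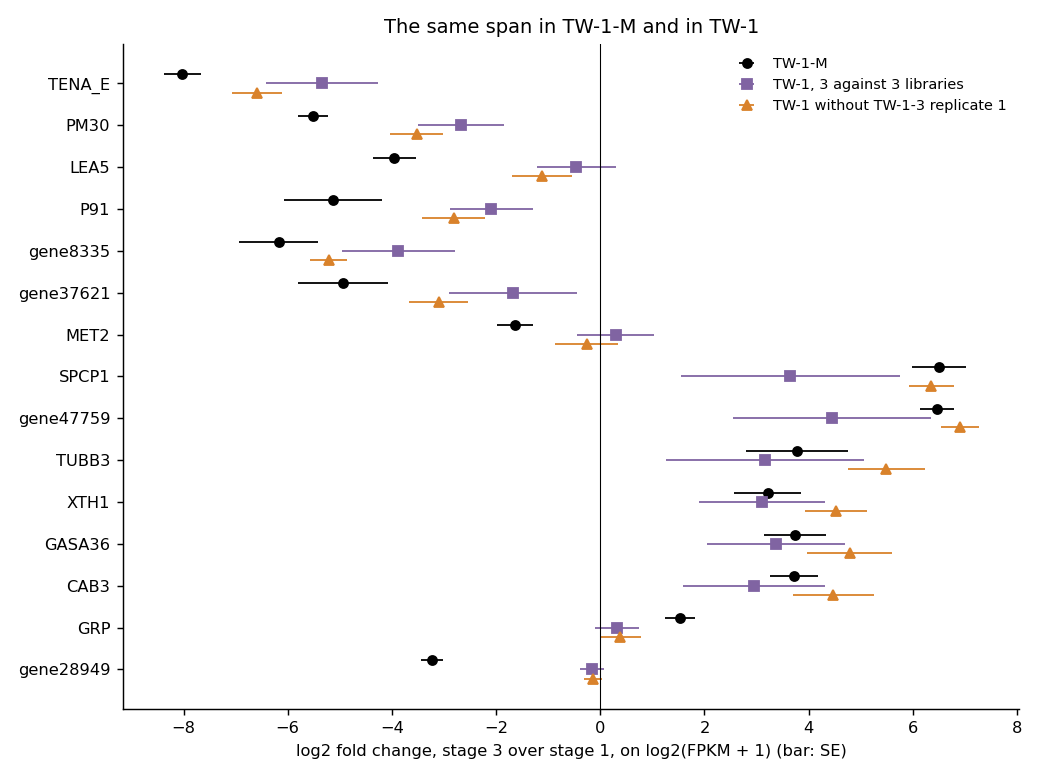
Log2 fold change of stage 3 over stage 1 on log2(FPKM + 1) for 15 genes, in TW-1-M (black), in TW-1 (purple) and in TW-1 without TW-1-3 replicate 1 (orange), with the SE as bars. The maturation genes at the top lie further to the left in TW-1-M, but none of their differences between the lines was called. Several of the genes were picked for large changes in TW-1-M. The 1 gene with a called difference between the lines is gene28949.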

How the data were processed

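Seeds of both lines were sampled at 3 germination stages with 3 replicates, and rRNA was removed before paired-end sequencing on an Illumina HiSeq instrument. The submitters' processing notes name Trimmomatic and TopHat, and the methods name cuffquant and cuffnorm for the expression values. The deposited table holds FPKM values that the authors computed per gene for 18 libraries. It holds no read counts, so no count test was run. The study lists reads per library, and these totals were not used here. The annotated build is Glyma 1.01, and strand is not given in the sources used here.

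Commas were removed from 1623 values. The genes with 3 or more libraries at 1 FPKM or above were tested with limma 3.58.1 (R 4.3.3, eBayes with trend) on log2(FPKM + 1), with a pseudocount of 1, and p-values were adjusted by Benjamini-Hochberg over the 27150 genes. The difference between lines was an interaction term over 12 libraries. Measures with 1 value a library were compared by the exact two-sided permutation test in scipy 1.17.1, and figures were drawn with matplotlib 3.10.9.

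Gene names came from the study's additional files (3255 genes matched) and from a RefSeq gene table of the assembly Glycine_max_v4.0 (36767 genes matched with the accession version ignored), whose coordinates were not used because the builds differ. Genes to name were drawn by a rule. In each direction it takes the 10 largest changes and the 6 most abundant genes among called genes that have a product name and no overlap between stages. It adds up to 4 members of each list with the highest mean FPKM, the inositol and phytate genes and genes called for the interaction. The text prints only part of these list members, mostly called ones. Of the 108 genes followed through the alternatives 103 were called. Uncalled members whose levels are not given include the histone H4 gene7841 (adjusted p = 0.40 with limma). The members and lists were chosen with earlier results of these data known, and symbol families were added after the data were seen. A planned search of promoters for motifs was not run, since no promoter sequence was at hand. Alternatives covered the pseudocount, the filter, scaling, the samples in the fit, the replicate block and the omission of each library.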

Additional observations from a re-analysis of the deposited data

Results flagged for a closer look

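One gene differed between the lines in its change over the span by the test of that difference over 12 libraries. The log2 change of gene28949 in TW-1-M minus that in TW-1 was -3.06 (SE 0.28, adjusted p = 0.008). It had 0.41, 0.47 and 0.55 FPKM in TW-1-M-3, against 11.4, 16.3 and 11.3 FPKM in TW-1-M-1, and 0, 0 and 0.11 FPKM in TW-1-3, against 0.37, 0 and 0.14 FPKM in TW-1-1. The call was lost with a pseudocount of 0.1 (-3.68, adjusted p = 0.52), with the replicate block (-3.06, adjusted p = 0.094), and without the libraries of replicate 1 (-3.25, adjusted p = 0.11), replicate 2 (-2.82, adjusted p = 0.79) or replicate 3 (-3.12, adjusted p = 0.96).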

How the results depend on the processing

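The count of 10163 genes called over the span in TW-1-M stayed within 1.5 times under the pseudocount, filter, scaling and fit alternatives, between 9672 with quantile normalization and 12348 with the ratio of group means, and between 8635 and 11648 when 1 library was left out. It fell to 2997 with a log2 limit of 2. The correlations of the deviations of same-numbered libraries were -0.230, -0.036 and 0.180. Those of libraries with different numbers ranged from -0.496 to 0.461. So few correlations cannot settle whether the replicate numbers pair the libraries. With the replicate block 10062 genes were called, and the interaction called 0 genes. TW-1-3 against TW-1-1 gave 269 calls, 11625 without TW-1-3 replicate 1 and 5793 at an unadjusted p below 0.05 with the log2 limit of 1. The interaction called 1 gene, 12 without TW-1-3 replicate 1, 17 with 18 libraries in one fit, and 0 to 1 when the libraries of a replicate number were left out. At an unadjusted p below 0.05 with the log2 limit of 1 it gave 1114. The difference in the number of genes with FPKM of at least 1 was 2733, and 774 at a threshold of 5 FPKM. It ranged between 2317 and 3246 when 1 library was left out. The difference in the share of the 10 most abundant genes was -6.77 percentage points, with -11.5 for 50 genes and -12.5 for 100 genes. MET2 reversed to 0.28 with quantile normalization. Of 1854 values of 103 called genes named in the text, 1831 kept their direction and their call, 22 lost the call and 1 reversed. Of these 103 genes, which leave out gene1813 and gene1486, 94 kept both under each alternative. Of 882 list counts 33 moved by over 1.5 times. Causes of these shifts were not tested. No counting error was attached to low FPKM values, since the table holds no read counts.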

Other observations

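Genes with no product name had some of the largest changes. NM_001252711.2 had 1488, 612 and 1362 FPKM in TW-1-M-3, against 1.73, 0.67 and 4.46 FPKM in TW-1-M-1, a log2 fold change of 8.52 (SE 0.5, adjusted p = 2.6e-04), the largest rise of all genes tested. The uncharacterized gene48055 had 1251, 659 and 1031 FPKM in TW-1-M-3, against 2.72, 1.27 and 2.14 FPKM in TW-1-M-1 (8.31, adjusted p = 8.1e-05), and NM_001248098.1 had 886, 575 and 487 FPKM in TW-1-M-3, against 1.49, 1.27 and 1.35 FPKM in TW-1-M-1 (8.05, adjusted p = 7.4e-05). In TW-1 without TW-1-3 replicate 1 these genes changed by 8.75, 8.43 and 7.31 on the log2 scale. Among the abundant ones, gene26001 had 74.7, 239 and 29.2 FPKM in TW-1-M-3, against 10386, 10689 and 10906 FPKM in TW-1-M-1 (-7.03, adjusted p = 8.1e-04), with TW-1-M-3 replicate 2 highest and replicate 3 lowest. They were chosen after their values were seen.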
